A study of Mus musculus with 7 samples.

Results

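Adult mouse testis was compared with prepuberal mouse testis, both uncultured, across all miRNAs that the study listed. Of the 7 small RNA libraries of the series, 3 were used: T6 and T10, from testes of mice at 6.5 and 10.5 days postpartum (dpp), and TAD, from adult testis. All 331 listed miRNAs were members, and each was called lower or higher in TAD only when its TAD value lay below or above both prepuberal values. The animals were CD1 mice, an outbred strain, with no genetic change and no treatment named for these samples. The labels give the ages as 6 dpp, 10 dpp and 2 months. The series asks how far testis explants progress through spermatogenesis in culture, and these uncultured libraries are its in vivo reference points. Each age had 1 library. The labels describe a sample as taken from a mouse, and whether others were pooled with it is not given in the sources used here. No difference could be set against the spread between animals, so every result is a description of these libraries, and every interval covers counting error only.

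MicroRNAs are short RNAs, cut from hairpin precursors, that guide the silencing machinery to messenger RNAs mainly through the seed, bases 2 to 8 of the mature sequence. At 6.5 dpp the germ cells of a mouse testis are spermatogonia among Sertoli, myoid and Leydig cells. At 10.5 dpp meiosis has just begun, and in the adult most cells are spermatocytes and spermatids. Whole testis was sequenced, so fewer cells of a type and less RNA per cell cannot be told apart in any value below.

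The mature sequences of the miRNAs on which the results turn were taken from RefSeq (GRCm38.p6), where 288 of the 331 listed names had an entry. They are written 5′ to 3′ with the seed in capitals. The first set shares the seed of miR-34 and miR-449, which were higher in the adult.
miR-34a-5p: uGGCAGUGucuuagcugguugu
miR-34b-5p: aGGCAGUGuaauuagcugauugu
miR-449a-5p: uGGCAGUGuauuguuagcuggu
miR-449c-5p: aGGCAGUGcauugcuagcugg
The let-7 seed is shown with members that were lower in the adult by very different amounts.
let-7a-5p: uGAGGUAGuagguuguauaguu
let-7e-5p: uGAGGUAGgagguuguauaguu
let-7f-5p: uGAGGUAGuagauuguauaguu
let-7i-5p: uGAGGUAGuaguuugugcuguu
The next sequences are relatives with 1 seed that went opposite ways, with miR-322-5p, miR-10b-5p and miR-411-5p lower and the others higher in the adult.
miR-322-5p: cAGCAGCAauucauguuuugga
miR-16-5p: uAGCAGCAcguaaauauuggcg
miR-15b-5p: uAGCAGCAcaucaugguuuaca
miR-10b-5p: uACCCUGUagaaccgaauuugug
miR-10a-5p: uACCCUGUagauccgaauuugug
miR-411-5p: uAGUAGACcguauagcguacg
miR-7229-5p: uAGUAGACaucccuggauagc
The last sequences belong to the imprinted cluster of chromosome 12, to the X-linked testis clusters and to the largest rise.
miR-127-3p: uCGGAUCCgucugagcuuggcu
miR-410-3p: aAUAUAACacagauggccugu
miR-470-5p: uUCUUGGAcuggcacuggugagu
miR-881-3p: aACUGUGUcuuuucugaauaga
miR-7210-5p: uAACAUUGuagacaggcacaaag

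The deposited values were whole multiples of the worth of 1 read in each library, which gave 13363593 reads on listed miRNAs in T6, 13397407 in T10 and 1628770 in TAD. Levels are given as CPM, the reads of a miRNA scaled so that all listed miRNAs of its library sum to 1000000. The smallest listed value stood for 5 reads in T6, 7 in T10 and 5 in TAD, and these are worth 0.374, 0.522 and 3.07 CPM. A miRNA listed at 0 was set to this value for a ratio, which is then a bound. CPM describes the make-up of a library and not its amount. With reads compared directly, as if all libraries were equally deep, 303 miRNAs were lower in TAD and 18 higher. Because TAD had far fewer reads, this setting shifts the median log2 ratio by -3.02. A direction given as higher in CPM turns there when its rise is smaller than the difference in read totals. The setting therefore restates the size of a rise and is no test of its direction, here and below.

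In CPM, 180 miRNAs (54.4%) were lower in TAD than in both prepuberal libraries, 116 (35%) were higher, and 35 (10.6%) lay between or tied. At least 2-fold from the nearer prepuberal library, 100 (30.2%) were lower and 55 (16.6%) higher, the latter count being 85 when T10 was left out. Of the 129 whose mean level over the 3 libraries reached 100 CPM, 60 (46.5%) were lower and 58 (45%) higher, with 27 (20.9%) and 20 (15.5%) past 2-fold. TAD enters that mean, so a miRNA high in TAD alone passed this minimum and one missing from TAD could fail it, and nothing is read from this split. On the log2 scale, the ratio of TAD to the mean of T6 and T10 had a median of -0.43 over the 328 miRNAs with a ratio. The median of all miRNAs moved with the scaling, by 0.05 with median-of-ratios factors and by -0.70 in the values as deposited. The middle 50% of all ratios ran from -1.35 to 0.72. Beyond these, 5% of the ratios lay above 3.85 and 5% below -3.32. The lower end is cut off by the lowest listed value of TAD, since several of the lowest ratios belong to miRNAs at 0 there and are bounds, so the lengths of the tails cannot be compared.

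**Figure D1:**
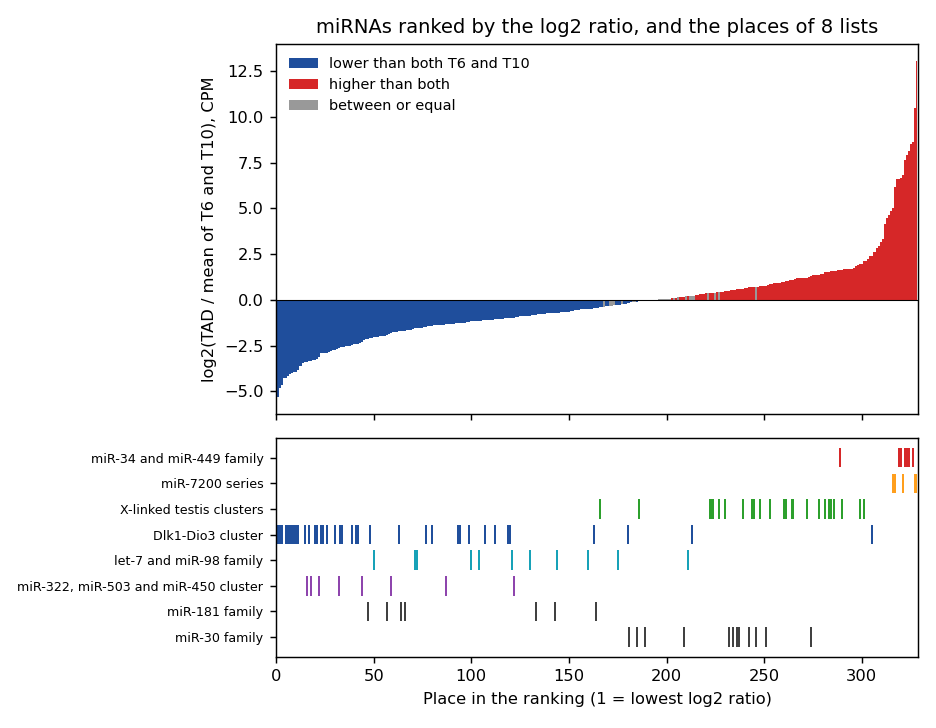
The upper panel ranks the 328 miRNAs with a ratio by log2 of TAD over the mean of T6 and T10 (CPM, vertical axis), coloured by whether TAD was lower than both, higher than both or between, and the lower panel marks the places of 8 lists in the same ranking. The Dlk1-Dio3 cluster fills the left end, the miR-34/449 and miR-7200 lists the right end, and the X-linked testis clusters, which are lower with reads compared directly, the right side.

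The difference between T6 and T10, 2 libraries 4 days apart, was much smaller than that to the adult. To turn 1 profile into the other, 10.0% of the reads would have to move between miRNAs for T6 and T10, 23.8% for T10 and TAD, and 33.1% for T6 and TAD. The median change in rank over all 331 miRNAs was 10 places between T6 and T10, 23 between T10 and TAD and 29 between T6 and TAD. The rank correlation over all 331 miRNAs was 0.972 for T6 and T10, 0.764 for T10 and TAD and 0.721 for T6 and TAD, given as a description since the miRNAs share libraries. T10 was thus the nearer of both to the adult by each of these measures. In steps, 133 miRNAs (40.2%) descended from T6 through T10 to TAD and 74 (22.4%) ascended.

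The concentration of reads on a few miRNAs hardly differed between ages. The 10 most abundant miRNAs held 80.3% of reads in T6, 80.5% in T10 and 79.3% in TAD, and 2 miRNAs held over 50% in each. To reach 90%, 20 miRNAs were needed in T6, 21 in T10 and 23 in TAD. What differed was which miRNAs held the share. miR-10b-5p, from the HoxD gene cluster, held 46.0% in T6, 44.6% in T10 and 31.2% in TAD, 14.1 percentage points less than the prepuberal mean. miR-143-3p, known from smooth muscle, held 10.4%, 14.6% and 25.8%, a gain of 13.3 points. The joint share of this pair was nearly constant, with 56.3% in T6, 59.1% in T10 and 57.0% in TAD. With reads compared directly, miR-143-3p was lower in TAD. The next gains were miR-470-5p with 3.41 points and miR-34c-5p with 2.03, and the next losses were let-7f-5p with -2.61 and miR-99b-5p with -2.31. T6 and TAD shared 6 of their 10 most abundant miRNAs, T10 and TAD 7, and T6 and T10 9. miR-34c-5p entered this group from rank 142 in T6 and 107 in T10 to rank 7 in TAD, and miR-881-3p from ranks 27 and 20 to 10.

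**Figure D2:**
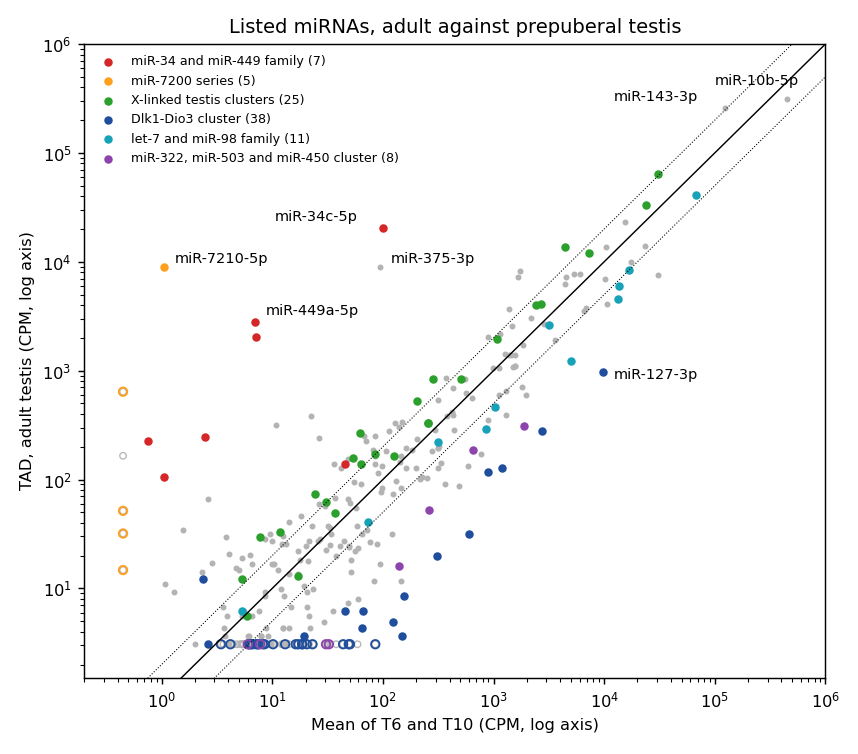
Each point is 1 of the 328 miRNAs with a ratio, with the mean CPM of T6 and T10 on the horizontal and CPM in TAD on the vertical log axis; the solid line marks equal levels, dotted lines 2-fold, and open points a library listed at 0 drawn at its lowest listed value. miR-10b-5p lies below and miR-143-3p above the line of equal levels, miR-127-3p is among the abundant miRNAs far below it, and the members of a coloured list lie mostly on 1 side.

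Ranked by prepuberal level alone, in which TAD takes no part, every band of abundance held more lower than higher miRNAs, as did the whole list. The bands had from 52.5% to 60% lower and from 30% to 40% higher, near the 54.4% and 35% of all miRNAs. Nothing particular to a band is read from this. Lower in TAD were 6 of the 10 miRNAs of highest prepuberal level, 21 of the next 40, 29 of the next 50, 54 of the next 100 and 70 of the last 131, and 4, 15, 15, 38 and 44 were higher. The least changed of the abundant miRNAs was miR-340-5p, whose 1336 CPM in T6, 1449 in T10 and 1391 in the adult gave rank 45 in each library. miR-298-5p (970, 995 and 1060 CPM), miR-30e-5p (1564, 1561 and 1402), miR-92a-3p (1297, 1237 and 1414) and miR-103-3p (1263, 1592 and 1380) followed it among miRNAs with a mean of 1000 CPM or more. These 5 miRNAs are the least changed in CPM, that is, relative to the library. In the values as deposited all had log2 ratios between -0.86 and -0.54, where the median of all miRNAs shifted by -0.70. How the factors of those values were derived is not known, so no change in amount is read from them.

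Among the 10 largest rises of miRNAs with a mean of 100 CPM or more, 3 belonged to miR-34 and miR-449, 2 to the miR-7200 series described below and 5 to neither. miR-375-3p, known from pancreatic islets, had 99.8 CPM in T6, 86.7 in T10 and 9015 in the adult, where it ranked 13. miR-184-3p, known from the eye, had 11.9, 9.85 and 314 CPM, a log2 ratio of 4.85 (interval from 4.64 to 5.06). miR-29a-3p, of a family known to target collagen messages, had 18.8, 25.6 and 386 CPM, a log2 ratio of 4.12 (3.96 to 4.28). These miRNAs were chosen by their distance from the nearer prepuberal library, so that distance is a description. miR-29c-3p, which differs from miR-29a-3p by the substitution C10U counted from the 5′ end, had 1.95, 6.12 and 20.9 CPM. miR-191-5p had 1701, 1781 and 8151 CPM, and its neighbour miR-425-5p, which is not among those 10, had 27.0, 26.1 and 240. Their hairpins lie at chr9:108568319-108568392 and chr9:108568777-108568861 of GRCm38, in exons of the long non-coding RNA gene 4833445I07Rik. The members of this pair were 4.68-fold and 9.04-fold above the prepuberal mean, so both were higher though their levels differ widely. miR-192-5p, known from liver, gut and kidney, had 1240, 2084 and 7298 CPM. For miR-191-5p and miR-192-5p, 4.68-fold and 4.39-fold above the prepuberal mean, the direction turned when reads were compared directly. For miR-375-3p, miR-184-3p, miR-29a-3p and miR-425-5p, whose rises were larger, it did not. Both outcomes follow from the size of the rise and the lower read total of TAD.

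Several rises started from next to nothing. miR-7210-5p (chr14:24088877-24088930, outside other annotated genes) had 5 reads in T6, 23 in T10 and 14626 in the adult, where it ranked 14 with 8980 CPM. All 5 listed miRNAs numbered from miR-7210 to miR-7230 were higher in TAD, against 35% of all miRNAs. The 4 besides miR-7210-5p were listed at 0 in both prepuberal libraries. A miRNA at 0 in both cannot be lower in TAD, so nothing is read from the direction of these 4. miR-7229-5p reached 640 CPM in TAD, miR-7214-5p 51.6, miR-7230-5p 31.9 and miR-7217-3p 14.7. The fifth miRNA listed at 0 in T6 and T10, miR-468-5p, had 269 reads or 165 CPM in TAD, at least 368-fold above the mean of the lowest values listed in T6 and T10.

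**Figure D3:**
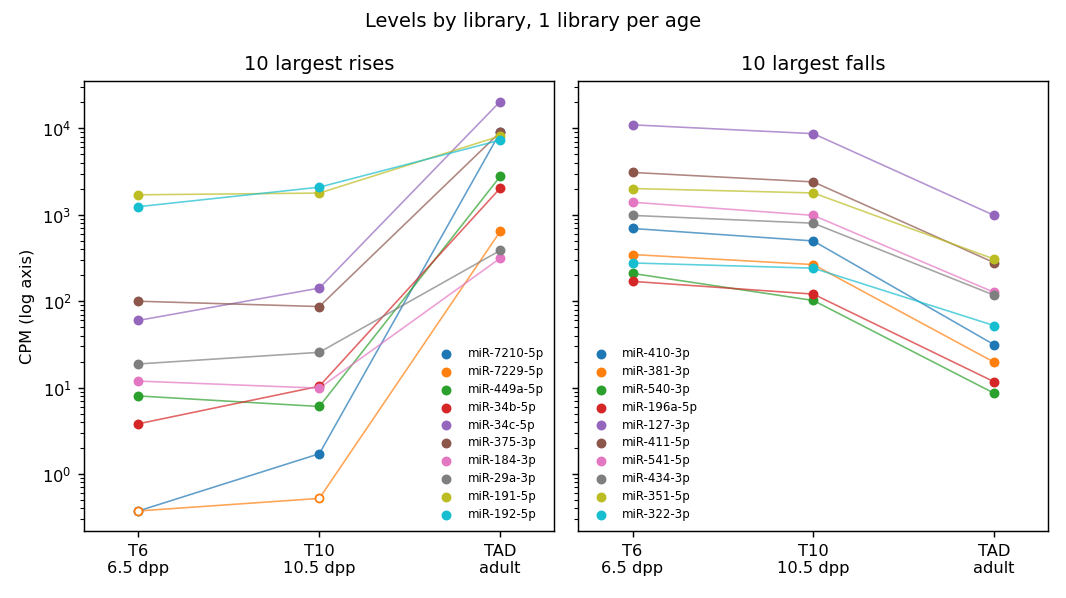
CPM on a log axis in T6, T10 and TAD, 1 library each, for the 10 miRNAs with the largest rise (left) and the 10 with the largest fall (right) among those whose mean reached 100 CPM; lines join values of 1 miRNA and open points are values listed at 0, drawn at the lowest listed value. The miRNAs were chosen by the distance of TAD from the nearer prepuberal library, and on the right all 10 descend from T6 through T10 to TAD.

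miR-34 and miR-449 form a family known for its accumulation in spermatocytes and spermatids, and mice without these miRNAs are infertile. Its 7 listed members were all higher in TAD, against 35% of all miRNAs, and its summed level was 99.8 CPM in T6, 229 CPM in T10 and 25937 CPM in the adult. The family was not even, however. miR-449a-5p gained most, a log2 ratio of 8.62, and miR-34a-5p least, with 25.8, 64.3 and 138 CPM and a log2 ratio of 1.62 (1.41 to 1.82). With reads compared directly, miR-34a-5p alone of the 7 was lower in TAD. Of the 5 members from the 5p arm, miR-34a-5p ranked below miR-34c-5p alone in T6 and T10, and it was the scarcest of them in TAD. miR-34b and miR-34c lie next to each other on chromosome 9 (miR-34b hairpin chr9:51103562-51103645, opposite to an intron of Btg4), and miR-449a and miR-449c share an intron of Cdc20b on chromosome 13. miR-34a stands alone on chromosome 4 (chr4:150068454-150068555). From T6 to T10, miR-34c-5p, miR-34b-5p, miR-34a-5p and miR-449c-5p were already higher, by log2 ratios from 1.24 to 2.17, whereas miR-449a-5p was lower by 0.41. miR-449a-5p rested on 107 and 81 reads there. Of the 3p arms, miR-34c-3p was lower in T10 too, with 18 reads in T6 and 10 in T10, and miR-34b-3p had 0 and 20.

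The X-linked testis clusters, which are known for expression mainly in testis, were abundant in all 3 libraries labelled testis. Of 26 listed members 22 were higher in TAD in CPM, against 35% of all miRNAs, while in the values as deposited 9 were higher and 2 lower, and with reads compared directly none were higher and 24 lower. Their summed share was 5.28% in T6, 9.59% in T10 and 13.7% in TAD. In 22 of the 26 the order was T6, T10, TAD, against 22.4% of all miRNAs in that order, and the median log2 ratio of T10 to T6 was already 0.89. The step from T10 to TAD was smaller, with a median of 0.59. miR-470-5p (chrX:66813951-66814025) led with 21742 CPM in T6, 39258 in T10 and 64587 in the adult. miR-881-3p (chrX:66801944-66802021) had 2785, 6046 and 13632 CPM, and miR-201-5p (chrX:67988096-67988161) had 26.9, 97.1 and 270, the largest log2 ratio of the list with 2.12 (1.97 to 2.27). miR-871-3p, second in level, had 17386, 30652 and 33111 CPM, so nearly all of its difference lay between T6 and T10. The 1 lower member, miR-883b-5p, had 21 reads in TAD and an interval of its log2 ratio from -1.05 to 0.22. miR-465a-3p, miR-465b-3p and miR-465c-3p are identical over 22 bases, and miR-465b-3p and miR-465c-3p have the same read numbers, so they are not separate measurements.

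Other miRNAs of the X chromosome went the other way. Of the 26 X-linked miRNAs outside these clusters, 20 were lower and 4 higher in TAD, against 54.4% and 35% of all miRNAs, with a median log2 ratio of -1.40. They include the miR-322, miR-503 and miR-450 cluster, known from muscle differentiation and cell cycle arrest, whose 8 listed members were all lower. Its sum was 3266 CPM in T6, 2799 CPM in T10 and 564 CPM in the adult. miR-351-5p had 2012, 1787 and 307 CPM, and miR-322-5p had 768, 549 and 188. In both, the adult value lay well below the prepuberal ones. Of the 272 autosomal miRNAs 155 (57.0%) were lower and 88 (32.4%) higher, near the shares of all miRNAs, and without the Dlk1-Dio3 list these were 119 and 87 of 234 (50.9% and 37.2%).

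The Dlk1-Dio3 cluster of chromosome 12, an imprinted domain whose miRNAs are made from the maternal chromosome, was the largest group among the falls. Of its 38 listed members 36 were lower in TAD, against 54.4% of all miRNAs, and 29 at least 2-fold, against 30.2%. The summed level was 18679 CPM in T6, 14548 in T10 and 1608 in the adult, a 10.3-fold difference from the prepuberal mean. The median log2 ratio was -2.60 and is an upper bound, because 23 members were listed at 0 in TAD. Of the 10 largest falls among miRNAs with a mean of 100 CPM or more, 7 belonged to this cluster. miR-127-3p (chr12:109592846-109592915), which lies opposite to an exon of Rtl1 and guides cleavage of its message, had 10974 CPM in T6, 8673 in T10 and 982 in the adult. miR-410-3p (chr12:109743715-109743795, in an exon of Mirg) had 694, 498 and 31.3 CPM, and the adult value rested on 51 reads. Among miRNAs with reads in TAD the lowest ratio was that of miR-300-3p, with 155 and 141 CPM in T6 and T10 and 3.68 in TAD, where 6 reads gave a log2 ratio of -5.33 (-6.48 to -4.17). Among those listed at 0 in TAD, miR-341-3p had 91.3 and 79.5 CPM in the prepuberal libraries, miR-485-5p 63.0 and 37.8, miR-379-5p 58.1 and 40.1, and miR-134-5p 48.9 and 38.5. These levels would have given many reads in TAD had they persisted. The decline had begun between T6 and T10, and 35 of the 38 were in the order T6, T10, TAD downwards, against 40.2% of all miRNAs, with a median log2 ratio of T10 to T6 of -0.34. The 2 members that were not lower in TAD were the arms of miR-1247, at the far end of the domain. miR-1247-5p was higher in TAD with 25, 38 and 20 reads, or 1.87, 2.84 and 12.3 CPM.

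The let-7 and miR-98 family, known for its rise in differentiating cells and its repression of Lin28, was lower in 10 of 11 members, against 54.4% of all miRNAs. The exception was let-7f-2-3p, a minor arm with 10 reads in TAD. The 9 listed miRNAs with the let-7 seed held 15.1% of reads in T6, 9.09% in T10 and 6.48% in TAD. Most of this loss of summed share was already seen at T10. The typical member did not share this timing. Over the 11 members the median log2 ratio was -0.49 for T10 to T6 and -0.60 for TAD to T10. let-7f-5p had 88240 CPM in T6, 45639 in T10 and 40872 in the adult. Its log2 ratio of T10 to T6 was -0.95 and that of TAD to T10 only -0.16. let-7i-5p had 14313, 12623 and 4586 CPM and was thus still near its T6 level at T10. let-7e-5p had 6948, 3129 and 1221 CPM, the largest difference among miRNAs with this seed, and let-7g-5p the smallest with 2749, 3646 and 2649. let-7a-5p and let-7f-5p differ by 1 base (from let-7f-5p to let-7a-5p, A12G), as do let-7a-5p and let-7e-5p (U9G), so reads with an error can be counted for the wrong member.

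let-7e-5p is made with miR-99b and miR-125a from 1 stretch of chromosome 17 (chr17:17830194-17830879, within Spaca6). All 5 listed miRNAs of that stretch were at least 2-fold lower in TAD, against 30.2% of all miRNAs. miR-99b-5p had 33854, 27437 and 7579 CPM and miR-125a-5p 11084, 9907 and 4125. Other members of the miR-99, miR-100 and miR-125 families differed less. miR-100-5p had 2215, 3494 and 2699 CPM and lay between the prepuberal values, and miR-125b-5p had 1302, 1704 and 1080. Of the 10 members of these families 9 were lower, where 54.4% of all miRNAs were. All 7 members of the miR-181 family, known from lymphocyte development, were lower, against the same 54.4%, with a median log2 ratio of -1.70. miR-181a-5p had 18066, 16928 and 10032 CPM and miR-181d-5p 690, 482 and 134. The most abundant member of this family thus differed less than a scarce one with the same seed. All 3 listed members of the miR-26 family were lower, and 5 of 6 of the miR-148 and miR-152 family, beside 54.4% of all miRNAs.

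**Figure D4:**
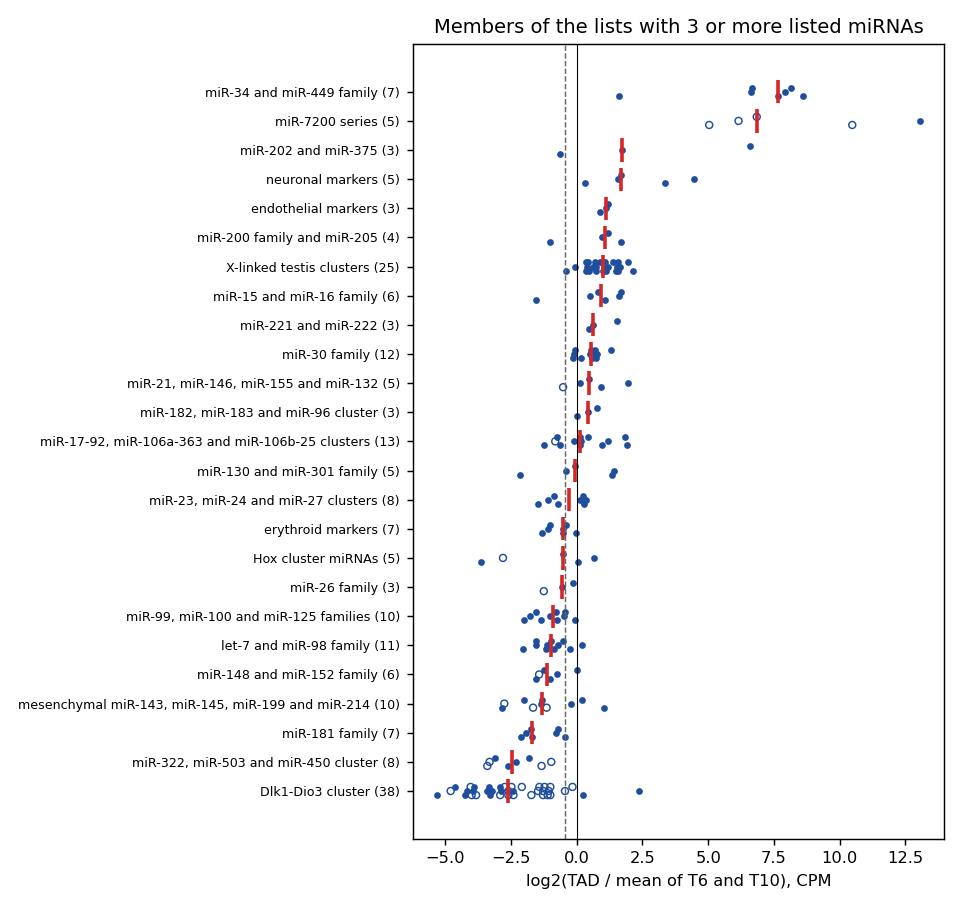
Each point is the log2 ratio of TAD to the mean of T6 and T10 (CPM) of 1 miRNA, by list, for lists with 3 or more listed miRNAs; the red bar is the median of the list, the dashed line the median of all miRNAs, and open points rest on a library listed at 0. The medians run from the Dlk1-Dio3 cluster at -2.60 to miR-34 with miR-449 at 7.66, and lists such as the miR-17-92 and related clusters straddle 0.

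A shared seed did not fix a shared direction. Of 38 seeds with 2 or more listed miRNAs, 9 had a lower and a higher member, and in 2 of these 1 member was at least 2-fold lower and another at least 2-fold higher. The first was the miR-15 and miR-16 seed, whose members are known to restrain cyclins. miR-16-5p had 1598 CPM in T6, 1336 in T10 and 2543 in the adult, and miR-15b-5p had 53.1, 43.1 and 155, whereas miR-322-5p was 3.49-fold lower than the prepuberal mean. The other members, miR-15a-5p, miR-195a-5p and miR-497a-5p, were higher too, but in the values as deposited miR-15a-5p was lower, and with reads compared directly all 6 were lower. miR-322-5p differs from miR-16-5p at 10 of 22 bases, all outside the seed. The second was the seed of miR-411-5p, which had 3087, 2398 and 279 CPM, and of miR-7229-5p, listed at 0, 0 and 640 CPM. At smaller size, miR-10b-5p was lower while miR-10a-5p, which differs from it only by A12U counted from the 5′ end, had 4330, 4690 and 7185 CPM. miR-10a-5p was not higher than T6 and T10 in the values as deposited. Hox clusters also hold miR-196a, and miR-196a-5p had 170, 121 and 11.7 CPM, the fourth largest fall among miRNAs with a mean of 100 CPM or more, while miR-196b-5p had 28.7, 23.5 and 27.0. Of the 13 seed families with 3 or more members, 3 were lower throughout (let-7, miR-181, and miR-125 with miR-351) and 2 higher throughout. The latter were the seed of miR-34 and miR-449 and that of the identical miR-465a-3p, miR-465b-3p and miR-465c-3p, which are not separate measurements.

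The miR-143 hairpin gave another split. Its 3p arm gained most in share of all miRNAs, whereas miR-143-5p had 7.03 CPM in T6 and 6.57 in T10 and was listed at 0 in TAD, where the lowest listed value is 3.07 CPM. miR-145a-3p, made from the same transcript, had 166, 243 and 235 CPM, and miR-145a-5p had 106, 91.0 and 83.5. Other miRNAs of mesenchymal cells were lower. miR-199a-3p had 1932, 1708 and 713 CPM, and miR-214-3p 95.6, 71.8 and 11.7. In all, 8 of 10 members of this list were lower, against 54.4% of all miRNAs. Among these are miR-199a-3p and miR-199b-3p, which are identical over 22 bases and are not separate measurements. The summed level of the list was nevertheless higher, 259604 CPM in TAD against 107416 and 149221, because miR-143-3p made up nearly all of it. In reads compared directly all 10 were lower.

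In several lists the direction of most members turned with the scaling. Their counts in CPM stand beside 54.4% lower and 35% higher over all miRNAs. Of the 13 members of the miR-17-92, miR-106a-363 and miR-106b-25 clusters, 7 were higher and 4 lower in CPM, but 4 were higher and 9 lower in the values as deposited, and lower members also led with the trimmed mean of M-values (6 against 5). miR-19a-3p had 42.9, 92.0 and 253 CPM and miR-19b-3p 298, 453 and 852, whereas miR-17-5p of the same cluster had 38.9, 27.2 and 36.2. The miR-30 family had 8 of 12 members higher in CPM and 2 in the values as deposited, with miR-30a-5p at 13097, 17518 and 23075 CPM. The lists of miR-200 with miR-205 (3 of 5 higher in CPM), of miR-221 with miR-222 (3 of 3), of miR-182, miR-183 and miR-96 (2 of 3) and of miR-21, miR-146, miR-155 and miR-132 (3 of 5) also lost their majority in the values as deposited. miR-202-5p, known from Sertoli and germ cells of the gonad, had 173, 228 and 128 CPM, and its other arm miR-202-3p 12.7, 6.57 and 31.9. miR-204-5p had 409, 1389 and 2048 CPM, so it too was mainly higher from T6 to T10. Of the 2 listed members of the miR-290 and miR-302 clusters, known from pluripotent cells, 1 was lower and 1 higher. Of 5 members of the miR-130 and miR-301 family 2 were lower and 2 higher. In the miR-23, miR-24 and miR-27 clusters 4 of 8 members were lower and 3 higher (50% and 37.5%), near the shares of all miRNAs. miR-101a-3p was higher and miR-101b-3p between. Among the miRNAs in no list, 67 were lower, 15 between and 21 higher.

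Genomic neighbours did not always share a direction. Of 34 clusters of hairpins at most 10 kb apart on 1 strand, 11 had only lower and 5 only higher members, and 13 had both. At 2-fold 1 of these 13 still had both, that of miR-497a and miR-195a, and there the arms of miR-195a themselves went opposite ways. Other splits also lay between the arms of 1 hairpin, as in miR-202. Of the 119 miRNAs with a hairpin inside a protein-coding gene on the same strand, 77 (64.7%) were lower and 26 higher, and of the 202 without such a gene 98 (48.5%) were lower and 87 higher, beside 54.4% lower and 35% higher over all miRNAs.

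The major arm was nearly always the same at all ages. Of 71 hairpins with both arms listed, 49 had at least 100 reads on both arms together in each library, and 48 of these had the same major arm in all 3. This minimum includes TAD, so hairpins scarce there, such as miR-379 and miR-708, are left out. The 5p share in TAD lay outside both prepuberal shares in 42 of the 49. The median absolute change of the 5p share from the prepuberal mean to TAD was 1.35 percentage points, against 0.704 between T6 and T10. In 9 of the 49 the change exceeded 10 points. miR-342 had a 5p share of 24.0% in T6, 26.5% in T10 and 0% in the adult, where none of 126 reads were listed for the 5p arm (Wilson interval up to 2.96%). A listed 0 may hide up to 4 reads. miR-195a had 74.1%, 80.0% and 96.8%, and miR-202 had 93.1%, 97.2% and 80.0%. miR-743a had 26.4%, 23.2% and 40.0%, and miR-106b had 21.2%, 17.5% and 6.87%. In these 5 hairpins TAD lay outside the prepuberal range by more than the counting error. They were chosen as the 5 with the largest change of the 5p share, so that distance is a description.

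**Figure D5:**
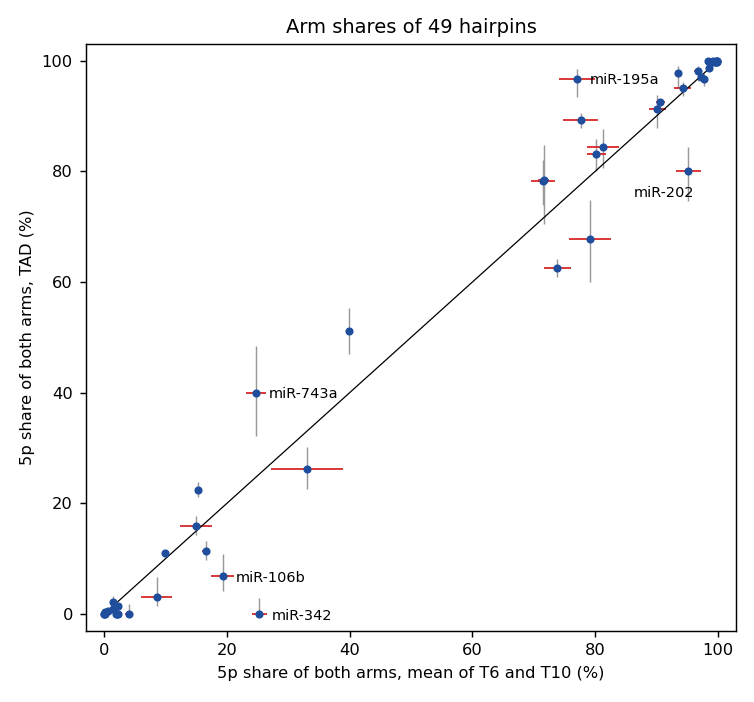
For 49 hairpins, the share of the 5p arm among reads of both arms in TAD (vertical axis, %, with 95% Wilson interval in grey) against the mean of T6 and T10 (horizontal axis, %, with the span of both libraries in red); the line marks equal shares. Most hairpins lie on the line near 0% or 100%, and the 5 named ones lie farthest from it.

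The depth of TAD limited what could be called low. In TAD 64 miRNAs were listed at 0, and 62 of them counted as lower. For 41 both prepuberal values were at least 2-fold above the lowest listed value of TAD. For 9 at least 1 prepuberal value was at or below it, so that a lower adult level was not detectable at this depth. The other 118 lower miRNAs had reads in TAD.

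Markers of other cells differed along with these results, and their part in them was not tested. Their counts stand beside 54.4% lower and 35% higher over all miRNAs. Of 7 listed erythroid markers (miR-144, miR-451a and miR-486) 5 were lower and none higher, with summed levels of 3376, 2987 and 2224 CPM. Both miR-486a-5p and miR-486b-5p are among the 5, with 22418 and 22311 reads in T6, 19779 and 19721 in T10 and 1796 each in TAD. They are thus not taken as separate measurements. Most of the sum is theirs, and it may hold the same reads under both names. miR-451a, which defines the red cell lineage, had only 8.98, 6.87 and 3.68 CPM. All 3 endothelial markers (miR-126) were higher, with sums of 331, 319 and 709 CPM. Both leukocyte markers were higher, miR-142a-5p with 8.53, 8.81 and 28.2 CPM and miR-150-5p with 3.67, 2.02 and 17.2. All 5 neuronal markers were higher, with sums of 169, 188 and 551 CPM, of which miR-128-3p and miR-9-5p made up most. The only striated muscle marker, miR-133a-3p, lay between with 23.4, 30.4 and 28.2 CPM. The endothelial, leukocyte, neuronal and muscle markers each made up at most 0.0709% of reads in TAD. Of the markers of liver and serum, miR-194-5p was higher like miR-192-5p, with 5.39, 7.09 and 20.3 CPM. With reads compared directly, the endothelial and liver markers were all lower, as were 3 of the 5 neuronal markers and 1 leukocyte marker.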

How the data were processed

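Small RNA libraries of testis were sequenced by the authors after size selection. Adaptors were trimmed, reads were checked with FastQC and aligned with Bowtie to the mouse genome mm10 and then to miRBase 21, and the authors left out miRNAs under a minimum of 50 reads. The submitters' processing notes also name HTSeq and DESeq. The deposited unit is a signal per mature miRNA and library, which the authors obtained by dividing reads by 1 factor per library. How the factors were derived, and how a read matching more than 1 miRNA was counted, is not given in the sources used here. miRNAs with identical or near-identical copies can therefore share reads.

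The worth of 1 read was estimated from the spacing of the low values of each library, 0.615 in T6, 0.648 in T10 and 3.19 in TAD. All values below 10000 reads then came out whole within 0.05 reads. The step was tested on simulated data. Reads were scaled to the sum over the 331 listed miRNAs (CPM). No test was run, because each group had 1 library. A 0 was set to the lowest listed value of its library, and no ratio was given where that value reached the other library. Intervals are 95% Wilson intervals for levels and 95% intervals on the log scale for ratios.

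The members and lists were chosen with earlier results of these data known. Named are the 10 miRNAs of highest mean CPM, the 10 largest rises and falls among those of at least 100 CPM ranked by the ratio to the nearer prepuberal library, the 5 least changed of at least 1000 CPM, the 5 highest of those at 0 in TAD, those at 0 in T6 and T10, 5 arm pairs, and members of the lists. miR-708-3p, with 57.6 and 60.3 CPM in T6 and T10, completes the 5 at 0 in TAD. Sequences and positions come from RefSeq and GENCODE release M21 on GRCm38, and 327 miRNAs had a position. Scripts ran under Python 3.11.15 with pandas 2.3.3 and numpy 2.4.6, statistics used scipy 1.17.1, and plots were drawn with matplotlib 3.10.9. Cultured libraries were not used here.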

Additional observations from a re-analysis of the deposited data

How the results depend on the processing

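No paired analysis was possible because each group had 1 library. The counts depended on the scaling. The main counts were 180 lower and 116 higher, and 100 and 55 at 2-fold. In the values as deposited 223 were lower and 70 higher, and 157 and 29 at 2-fold. With reads compared directly (libraries taken at equal depth) the counts were 303 and 18, and 284 and 16 at 2-fold. These mostly restate the lower read total of TAD. With a mean of at least 100 CPM, TAD included, they were 60 and 58, and 27 and 20. At 4-fold 42 were lower and 25 higher. A pseudocount of 10 CPM left 36 at least 2-fold higher. TAD was at least 2-fold higher for 57 miRNAs without T6 and for 85 without T10. Median-of-ratios factors, the trimmed mean of M-values and the sum without the most abundant miRNA kept each of these 4 counts within 1.5 times. They gave 176, 197 and 206 lower and 123, 99 and 93 higher. The median log2 ratio of all miRNAs shifted by 0.05, -0.24 and -0.33 under these 3, by -0.70 in the values as deposited and by -3.02 at equal depth. The share of lower among lower and higher miRNAs was 60.8%, and 58.9%, 66.6%, 68.9%, 76.1% and 94.4% in the same order. The cause of the difference in read totals was not tested. Without the most abundant miRNA, the 10 most abundant held 66.1% in T6, 67.1% in T10 and 71.7% in TAD. The log2 ratios of miR-191-5p and miR-192-5p turned to -0.81 and -0.90 at equal depth. Of 44 named results 42 kept their direction with each of those 3 scalings, 40 in the values as deposited and 36 at equal depth. The majority of members turned in 6 of 33 lists in the values as deposited, in 15 at equal depth and in 1 each with the trimmed mean of M-values and without the most abundant miRNA. That 1 list was the miR-17-92 and related clusters, with 6 lower and 5 higher, and 7 and 5. The depth of TAD limits levels under 3.07 CPM.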

Other observations

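The mature sequences of lower and higher miRNAs were alike in length, with a median of 22 bases in both. Of the 154 lower miRNAs with a sequence 44.8% began with U and 31.8% with A, and of the 105 higher ones 55.2% and 20%. Over all 288 sequences 49.0% began with U. The median GC content was 47.6% among lower and 45.5% among higher miRNAs. Members of a family share bases and are not independent points.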
